A study of Mus musculus with 55 samples.

Results

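The genes that encode the core proteins of the spliceosomal small nuclear ribonucleoproteins (snRNPs) were followed through RNA-seq of the mouse dorsal hippocampus. The 10 genes were chosen by symbol (Snrpb, Snrpc, Snrpd1, Snrpd2, Snrpd3, Snrpe, Snrpf, Snrpg, Snrpa and Snrpa1), because Snrpd1, Snrpd3 and Snrpc had been lower in KO than in WT mice of this series. All 10 were among the 55487 genes counted, and all 10 passed the filter on low counts that left 16168 genes to test. WT mice were C57/B6 animals, and KO mice came from a line that lacks an exon of Cnih3, a gene for an auxiliary subunit of AMPA-type glutamate receptors. The WT groups held 5 males and females in metestrus (4), diestrus (6), proestrus (5) and estrus (7). The KO groups held 7 males and females in metestrus (5), diestrus (6), proestrus (4) and estrus (6). No group received a treatment, and ages ran from 10.86 to 23.71 weeks. The KO line was derived from a BL/6N founder backcrossed to C57/BL6j, and all 28 KO mice had parents of the Cnih3 colony, as had 11 of the 27 WT mice, while the other 16 WT mice had B6 parents. Genotype, line and breeding therefore differed together in part.

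An snRNP is a small nuclear RNA wrapped in proteins, and snRNPs assemble on each intron to remove it. The Sm proteins SmB, SmD1, SmD2, SmD3, SmE, SmF and SmG close into a ring around the U1, U2, U4 and U5 RNAs, while the A and C proteins of U1 sit only on the U1 particle, which recognizes the start of an intron, and the A′ protein of U2 sits only on the U2 particle, which recognizes the branch point. Neurons additionally make SmN, from the imprinted gene Snrpn, which can take the place of SmB.

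The promoters of Snrpd3 and Snrpc, both lower in KO mice, are printed so that their letters can be set beside each other. Both are RefSeq promoters of build GRCm38.p6, from 250 bases before to 50 bases after the start that RefSeq gives, on the + strand. They lie at chr10:75517792-75518091 for Snrpd3 and chr17:27839837-27840136 for Snrpc. Both windows fall inside the gene spans given below, which begin further upstream. Capitals mark matches to the CCAAT box.
Snrpd3: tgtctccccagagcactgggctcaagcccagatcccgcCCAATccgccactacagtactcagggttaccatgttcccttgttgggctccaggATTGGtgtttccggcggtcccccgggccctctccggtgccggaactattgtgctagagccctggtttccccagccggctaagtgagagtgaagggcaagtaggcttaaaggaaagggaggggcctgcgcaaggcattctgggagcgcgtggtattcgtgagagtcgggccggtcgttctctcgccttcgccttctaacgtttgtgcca
Snrpc: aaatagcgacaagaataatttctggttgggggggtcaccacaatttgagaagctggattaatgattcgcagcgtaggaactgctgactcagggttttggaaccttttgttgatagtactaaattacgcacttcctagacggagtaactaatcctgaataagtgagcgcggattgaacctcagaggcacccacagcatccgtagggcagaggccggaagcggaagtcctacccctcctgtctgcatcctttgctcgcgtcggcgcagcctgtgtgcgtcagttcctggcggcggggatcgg
Short motifs were searched on both strands, with no mismatch, in all 32851 promoters of the RefSeq table, and 9 promoters of 8 of the 10 genes were examined. The promoter of Snrpd1 was not used here. The Snrpd3 promoter held the CCAAT box (CCAAT) at -212 on the + strand and at -158 on the - strand, counted from the RefSeq start. The Snrpc promoter held none of the motifs. CCAAT stood in 3 of the 9 promoters (Snrpg, Snrpd3 and Snrpf) and in 37.4% of all promoters. The ETS site (CCGGAAGT) stood only in the Snrpe promoter, 1 of 9, compared with 3.89% of all. The TATA box (TATAAA) stood in 1 of 9, for Snrpa, compared with 13.6% of all, and the E-box (CACGTG) in both Snrpa promoters, compared with 7.15%. The NRF1 site (GCGCATGCG, 1.75% of all) and the YY1 site (AAGATGGCG, 1.4% of all) stood in none of the 9. GC content was 60.3% for Snrpd3 and 52.7% for Snrpc, against a median of 52.7% over all promoters. None of the 6 motifs searched was found in both the Snrpd3 and the Snrpc promoter.

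Polyadenylated RNA from the supernatant of an NP-40 lysate was sequenced with 1 library per mouse. Total counts per library ran from 25881295 to 63547098, with a median of 53384170. Levels are given as log2 CPM, the base 2 logarithm of the count divided by the TMM-scaled library size (CPM), so that a difference of 1 is a 2-fold change. Differences between groups are log2 fold changes, given with their standard errors, and are negative where the first group named had the lower level. They were estimated in limma, in 1 fit of all 55 libraries to 10 group means. A gene was called where its false discovery rate (FDR, Benjamini-Hochberg over all 16168 genes) was under 0.05. In all 12 males and all 43 females the sex-linked genes matched the labels. Cnih3 itself ran from 4.43 to 5.97 log2 CPM in WT mice and from 4.43 to 5.58 in KO mice, and its difference was -0.34 ± 0.08 (FDR 0.00692). Most of the gene was still counted, so these overlapping levels cannot check the labels. All 8 dentate granule cell and all 6 CA1 pyramidal cell markers were detected in every library. Of the pituitary markers 1 of 6 was at 0 in every library. In bulk tissue, fewer cells of a type and less RNA per cell cannot be told apart. WT proestrus replicate 5 and KO male replicate 6 stood apart from their groups, with quality weights of 0.194 and 0.28, where a weight of 1 is that of an average library.

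Among the 10 genes, levels differed widely. On the scale of CPM per kilobase of the longest coding transcript (mean ± SD, n = 55), Snrpb, which encodes SmB, was highest at 186.9 ± 36.8. It was followed by Snrpd1 at 146.9 ± 30.8 and Snrpe at 110 ± 21.0. Snrpa reached 95.7 ± 15.4 and Snrpd2 90.2 ± 17.6. The lower genes were Snrpd3 at 63.9 ± 9.15, Snrpg at 58.3 ± 10.8, Snrpc at 55.1 ± 14.2 and Snrpa1 at 48.5 ± 6.87. Neighbours from Snrpe to Snrpd2, and from Snrpd3 to Snrpa1, lay within 1 SD of each other. Snrpn, the neuronal paralog of Snrpb, was at 760.6 ± 107 on the same scale, above every one of the 10 genes, and Snrpb2, which encodes a U2 protein related to the A protein of U1, was at 28.1 ± 4.50. The longest transcript is not always the most used one, which limits this order. Snrpf was at only 1.66 ± 0.53.

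The low value of Snrpf, which encodes SmF, rests on how reads were counted. Its gene counts ran from 7 to 119 per library. Of its 861 exon bases 735 (85.4%) were shared with the exons of Ccdc38 and 4933408J17Rik, and only reads assigned to 1 gene were counted. Of the 100-base words of its transcript 78.3% also occurred in transcripts of other genes. The transcript estimates, which divide shared reads among transcripts, gave Snrpf a mean of 732.9 per library compared with a mean gene count of 68.4, a ratio of 10.7, where the median ratio over all genes was 0.392. For Snrpd3 the ratio was 0.0115, because the transcript table used here lists only 2 of its transcripts and not the longest coding one. The other 8 genes had ratios from 0.351 to 0.527. Shared words made up at most 13.8% of the transcripts of these 8 genes (Snrpg with Gm8186, and 13.7% for Snrpe with Snrpert). Values of Snrpf are therefore uncertain throughout.

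**Figure D1:**
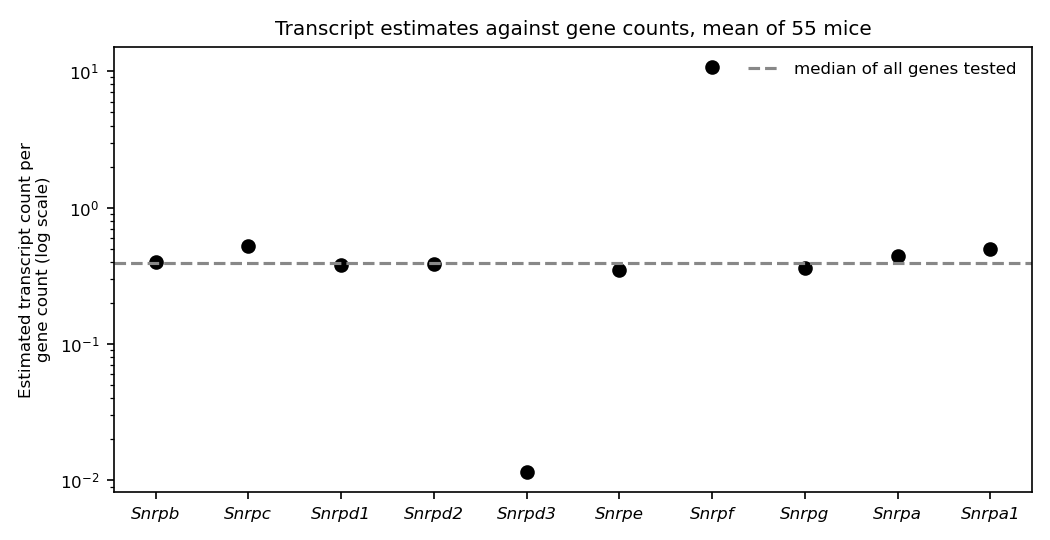
Ratio of the mean estimated transcript count to the mean gene count over 55 mice (vertical axis, log scale, no unit) for each of the 10 genes, with the median of all genes tested as a dashed line at 0.392. Snrpf lies far above the line at 10.7 and Snrpd3 far below it at 0.0115, while the other 8 lie between 0.351 and 0.527.

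Snrpd1, Snrpd3 and Snrpc were lower in KO than in WT mice. Since these values chose the genes, they are given as a description with no test. Over the 5 groups, each weighted equally, the log2 fold change was -0.44 ± 0.05 for Snrpc, which encodes the C protein of U1, -0.39 ± 0.04 for Snrpd1 (SmD1) and -0.28 ± 0.03 for Snrpd3 (SmD3). In percent, KO levels differed from WT levels by -26.4%, -23.5% and -17.9%. These 3 of the 10 genes were called lower in KO mice, where 1.90% of all genes were, and nothing is read from this count. As the same values chose the 3 genes, their FDR is not read as a test. The nearest gene outside the threshold was Snrpb (-0.17 ± 0.05, FDR 0.0526). Next came Snrpe (SmE) at -0.14 ± 0.05 and Snrpg (SmG) at -0.12 ± 0.05. Snrpa (the A protein of U1) was at -0.07 ± 0.05, Snrpd2 (SmD2) at -0.04 ± 0.05 and Snrpa1 (the A′ protein of U2) at -0.03 ± 0.04. Snrpf was at 0.14 ± 0.12. Of the 10 differences 9 were negative with a median of -0.13, compared with 51.4% negative and a median of -0.003 over all genes. Of these 9, 3 had chosen the set, and levels of the 10 genes moved together between libraries. The signs are therefore not independent, and nothing is read from their count.

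Snrpd1 (ENSMUSG00000002477, GRCm38 chromosome 18, 10617775 to 10642079, + strand) was at 7.14 ± 0.21 log2 CPM in the 27 WT mice and at 6.76 ± 0.21 in the 28 KO mice (mean ± SD). The WT males were at 7.14, 7.58, 7.38, 7.00 and 6.91, and the 7 KO males ran from 6.48 to 7.38 with a median of 6.69. In metestrus the WT mice were at 7.16, 7.01, 7.09 and 7.04, and the KO mice at 6.58, 6.45, 6.71, 6.72 and 6.90. Male values overlapped, with KO male replicates 3 (7.02) and 6 (7.38) above the lowest WT male and the other 5 below every WT male, whereas in metestrus every KO mouse lay below every WT mouse. In diestrus the WT range was 6.87 to 7.48 (median 7.05) and the KO range 6.70 to 6.79 (median 6.75). In estrus the WT range was 7.00 to 7.37 (median 7.19) and the KO range 6.59 to 6.79 (median 6.65). The genotypes did not overlap in either stage. In proestrus the WT mice were at 7.04, 6.96, 6.94, 7.14 and 7.75, and the KO mice at 6.68, 6.78, 6.98 and 7.33. The proestrus groups overlapped, with WT replicate 5 the highest of all mice. The log2 fold changes were -0.46 ± 0.10 in males and, in females, -0.40 ± 0.10 (metestrus), -0.39 ± 0.10 (diestrus), -0.18 ± 0.10 (proestrus) and -0.51 ± 0.09 (estrus). Of the 28 KO mice 23 lay below every WT mouse of any group.

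Snrpd3 (ENSMUSG00000020180, chromosome 10, 75517551 to 75537381, + strand) had the narrowest spread of the 10 genes, at 7.73 ± 0.15 in WT and 7.45 ± 0.13 in KO mice. The WT males were at 7.80, 8.08, 7.86, 7.57 and 7.52, and the KO males ran from 7.24 to 7.80 with a median of 7.41. In metestrus the WT mice were at 7.73, 7.67, 7.71 and 7.63, and the KO mice at 7.38, 7.35, 7.40, 7.42 and 7.53. Only in metestrus did the genotypes not overlap. In diestrus the WT range was 7.50 to 8.00 (median 7.75) and the KO range 7.36 to 7.56 (median 7.52). In proestrus the WT mice were at 7.73, 7.67, 7.56, 7.56 and 8.09, and the KO mice at 7.35, 7.38, 7.53 and 7.79. In estrus the WT range was 7.59 to 7.82 (median 7.73) and the KO range 7.26 to 7.60 (median 7.40), and 1 KO mouse lay above the lowest WT mouse. The log2 fold changes were -0.38 ± 0.08 (males), -0.27 ± 0.07 (metestrus), -0.27 ± 0.07 (diestrus), -0.19 ± 0.08 (proestrus) and -0.31 ± 0.06 (estrus). Of the 28 KO mice 18 lay below every WT mouse. About 6.74% of the exon bases of Snrpd3 are shared with Gucd1.

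Snrpc (ENSMUSG00000024217, chromosome 17, 27838150 to 27851968, + strand) was at 5.99 ± 0.27 in WT and 5.54 ± 0.26 in KO mice. The WT males were at 5.84, 6.75, 6.19, 5.88 and 5.72, and the KO males ran from 5.49 to 6.16 with a median of 5.61. In metestrus the WT mice were at 5.72, 5.85, 5.83 and 6.17, and the KO mice at 5.49, 5.05, 5.28, 5.53 and 5.78. Both pairs of groups overlapped, in metestrus through 1 KO mouse. In diestrus the WT range was 5.71 to 6.44 (median 5.87) and the KO range 5.18 to 5.63 (median 5.44). In estrus the WT range was 5.66 to 6.03 (median 5.87) and the KO range 5.17 to 5.58 (median 5.37). Neither of these stages showed an overlap. In proestrus the WT mice were at 6.01, 6.01, 6.16, 6.30 and 6.55, and the KO mice at 5.67, 5.69, 5.87 and 6.12, of which 3 lay below every WT mouse. The log2 fold changes were -0.39 ± 0.12 (males), -0.44 ± 0.11 (metestrus), -0.52 ± 0.11 (diestrus), -0.38 ± 0.12 (proestrus) and -0.48 ± 0.10 (estrus). Of the 28 KO mice 20 lay below every WT mouse.

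**Figure D2:**
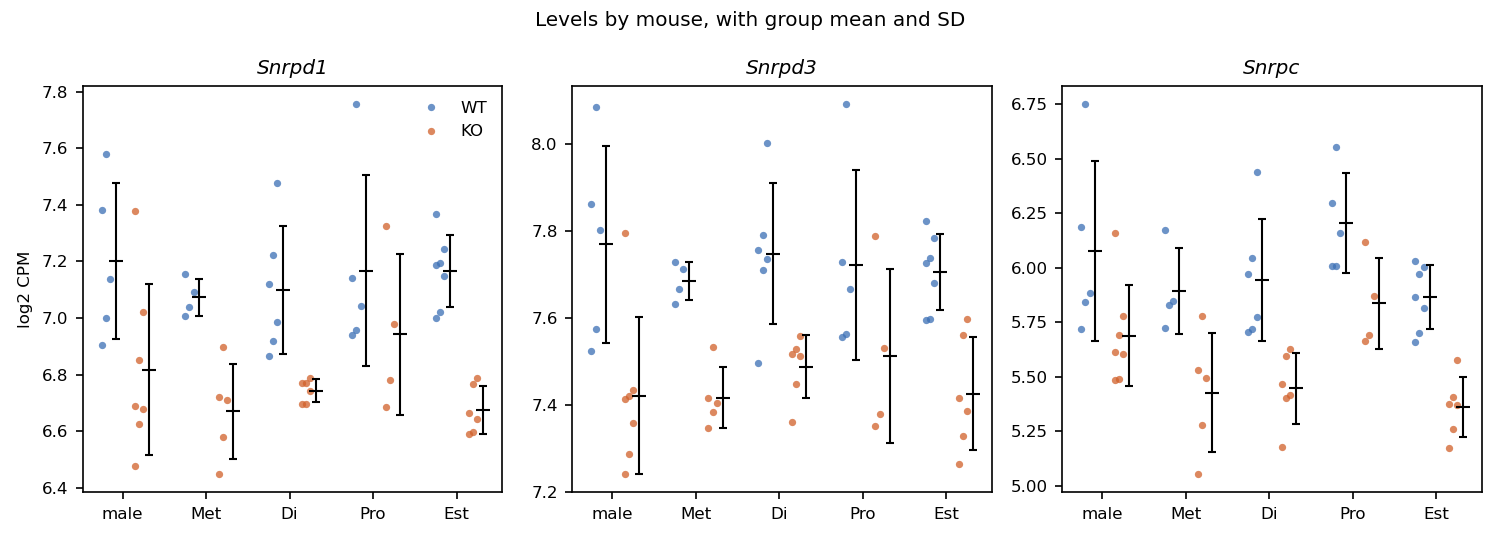
Log2 CPM of Snrpd1, Snrpd3 and Snrpc in each mouse (points, WT blue and KO orange) for males, metestrus (Met), diestrus (Di), proestrus (Pro) and estrus (Est), with the group mean and SD in black. KO means lie below WT means in all 5 groups for each gene, and the points do not overlap for Snrpd1 in Met, Di and Est, for Snrpd3 in Met, and for Snrpc in Di and Est.

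No other of the 10 genes was separated by genotype in any group. Among all genes, every KO mouse lay below every WT mouse for 0.111% (males), 1.06% (metestrus), 0.0619% (diestrus), 1.00% (proestrus) and 0.285% (estrus), against 0, 2, 2, 0 and 2 of the 10. Called in estrus were 3 genes, the same Snrpd1, Snrpd3 and Snrpc, and 0.179% of all genes. Since KO against WT chose the genes, nothing is read from this count either. In males, metestrus, diestrus and proestrus limma called 0 of the 10. Of all genes it called 0.00619%, 0.0247%, 0% and 0.315%, so 0 of 10 says little about these genes. Counts of the 10 at an unadjusted p are not given for these groups, since the share of all genes at that p is not set beside them. In the same 4 groups edgeR and DESeq2 also called 0, with at most 0.0247% of all genes. In estrus edgeR called 0 of the 10 and 0.0433% of all genes, and DESeq2 1 and 0.179%. The number of negative differences was 8 (males), 8 (metestrus), 9 (diestrus), 5 (proestrus) and 10 (estrus), with medians of -0.19, -0.12, -0.27, -0.03 and -0.22. As over the 5 groups, these signs are a description only. In proestrus, Snrpd2 (0.25 ± 0.12), Snrpe (0.15 ± 0.12) and Snrpg (0.22 ± 0.12) were on the positive side. The Snrpf difference there, 1.02 ± 0.32, included WT proestrus replicate 1, in which 7 reads were counted. Without WT proestrus replicate 5 and KO male replicate 6, the proestrus differences of Snrpd1, Snrpd3 and Snrpc were -0.15, -0.19 and -0.35, and those of males -0.49, -0.39 and -0.41.

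**Figure D3:**
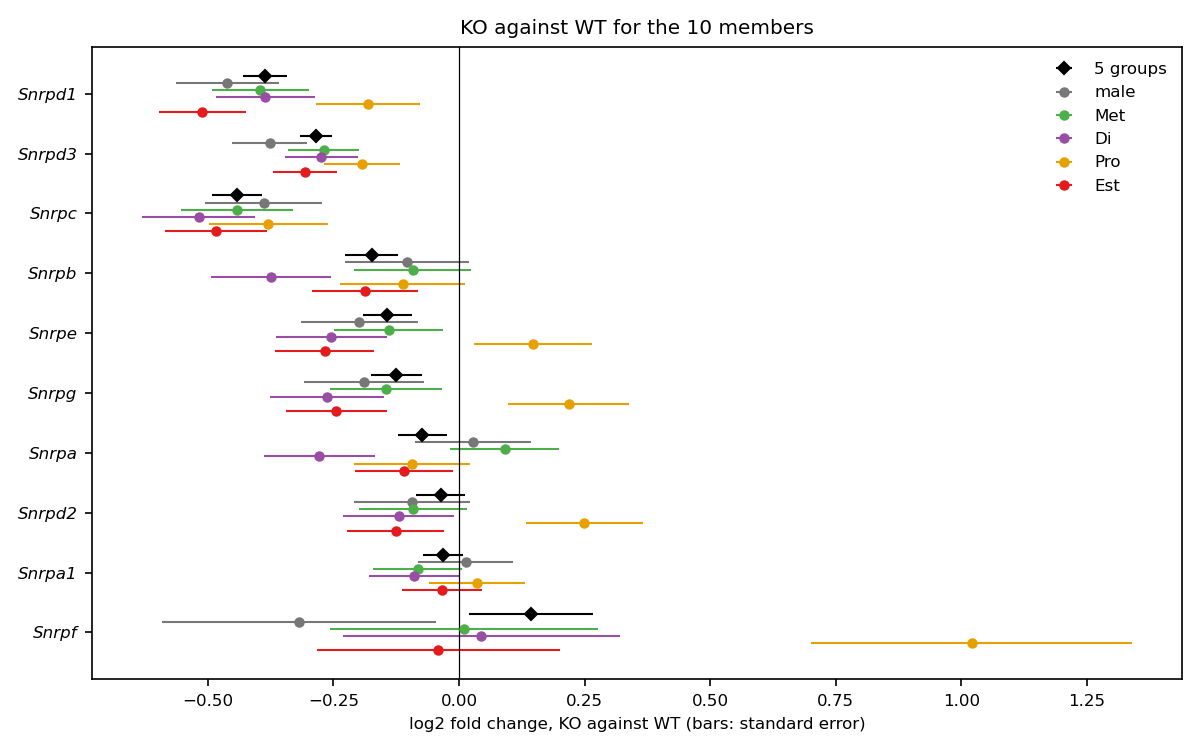
Log2 fold change of KO against WT mice with its standard error (horizontal axis) for the 10 genes, over the 5 groups (black diamonds) and in each group (coloured points). For Snrpd1, Snrpd3 and Snrpc all points lie left of 0, from -0.52 to -0.18, while proestrus (Pro) lies right of 0 for Snrpe, Snrpg, Snrpd2 and Snrpf.

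Breeding was set beside these values. WT mice with B6 parents (n = 16) and WT mice with a Cnih3-colony parent (n = 11) had mean Snrpd1 levels of 7.10 ± 0.18 and 7.21 ± 0.25, mean Snrpd3 levels of 7.69 ± 0.14 and 7.78 ± 0.17, and mean Snrpc levels of 5.98 ± 0.28 and 6.00 ± 0.29. On average both kinds of WT mice thus lay above the KO mean for each gene. These means pool groups that held the 2 kinds unevenly. Among the 11 were 4 males and 4 mice in diestrus, and among the 16 were 6 in estrus and 4 in proestrus. With the 11 colony WT mice alone, the log2 fold change over the 5 groups was -0.53 for Snrpd1, -0.37 for Snrpd3 and -0.47 for Snrpc. WT metestrus, proestrus and estrus then each held 1 mouse, and these groups were assumed to vary like the others. In proestrus that mouse was replicate 5, the library with the lowest weight, and the proestrus differences became -0.91, -0.64 and -0.79. In that fit 6 of the 10 genes and 15.1% of all genes were called over the 5 groups. Linked differences between the C57/B6 substrains near the deleted exon cannot be told apart from the deletion. Cnih3 and Snrpe are on chromosome 1, Snrpd1 on 18, Snrpd3 on 10 and Snrpc on 17. These positions do not show whether substrain differences, linked or not, had a part, and this was not tested.

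The shares of the listed transcripts were nearly equal in both genotypes. The main coding transcript of Snrpd1 made up 97.9% ± 0.60 (SD) of the estimated Snrpd1 transcripts in the 27 WT mice and 97.8% ± 0.49 in the 28 KO mice. The main coding transcript of Snrpc made up 91.0% ± 2.34 and 90.9% ± 2.03. In the summed transcript estimates the log2 fold change over the 5 groups was -0.39 for Snrpd1 and -0.46 for Snrpc. No such value is given for Snrpd3, because its main transcript was not analysed here.

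Levels of the 10 genes moved together from library to library. With group means removed, the correlation of each gene with the mean of the other 9, over 55 libraries that share their scaling, ran from 0.41 for Snrpf and 0.67 for Snrpb to 0.92 for Snrpd1. Among pairs, Snrpd2 and Snrpe (r = 0.94) and Snrpd2 and Snrpg (r = 0.93) were most alike, and Snrpb was closest to Snrpa (r = 0.89). The genes outside the set whose levels were most like the mean of the 10 were Zcchc17 (r = 0.96, rho = 0.94), Med28 (0.95, 0.94), Atp5g3 (0.94, 0.91), Sec61b (0.94, 0.92) and Med10 (0.94, 0.92). Zcchc17 encodes a zinc finger protein, Med28 and Med10 subunits of the Mediator complex, Atp5g3 a subunit of the mitochondrial ATP synthase and Sec61b a subunit of the protein channel of the endoplasmic reticulum.

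The mRNAs of 34 ribosomal proteins moved with the set, with a correlation of 0.89 between the means of both lists. Their summed level ran from 13550 to 24980 CPM in WT mice (median 15870) and from 12570 to 21830 CPM in KO mice (median 14800). The libraries with the highest sums were WT proestrus replicate 5 (24980), WT diestrus replicate 5 (21970), KO male replicate 6 (21830), WT male replicate 1 (20640) and KO proestrus replicate 4 (20530). In KO mice 33 of the 34 had negative differences over the 5 groups, with a median of -0.10, and 2 were called by limma, where 3.40% of all genes were called in either direction. Neither edgeR nor DESeq2, which called 0.946% and 1.16% of all genes, called any of the 34. With the ribosomal protein level as a covariate, a fit chosen after seeing the data, the differences over the 5 groups were -0.31 for Snrpd1, -0.24 for Snrpd3 and -0.37 for Snrpc, and 6.23% of all genes were called. Without both libraries of low weight they were -0.39, -0.29 and -0.44. The part of other causes of this common movement was not tested.

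**Figure D4:**
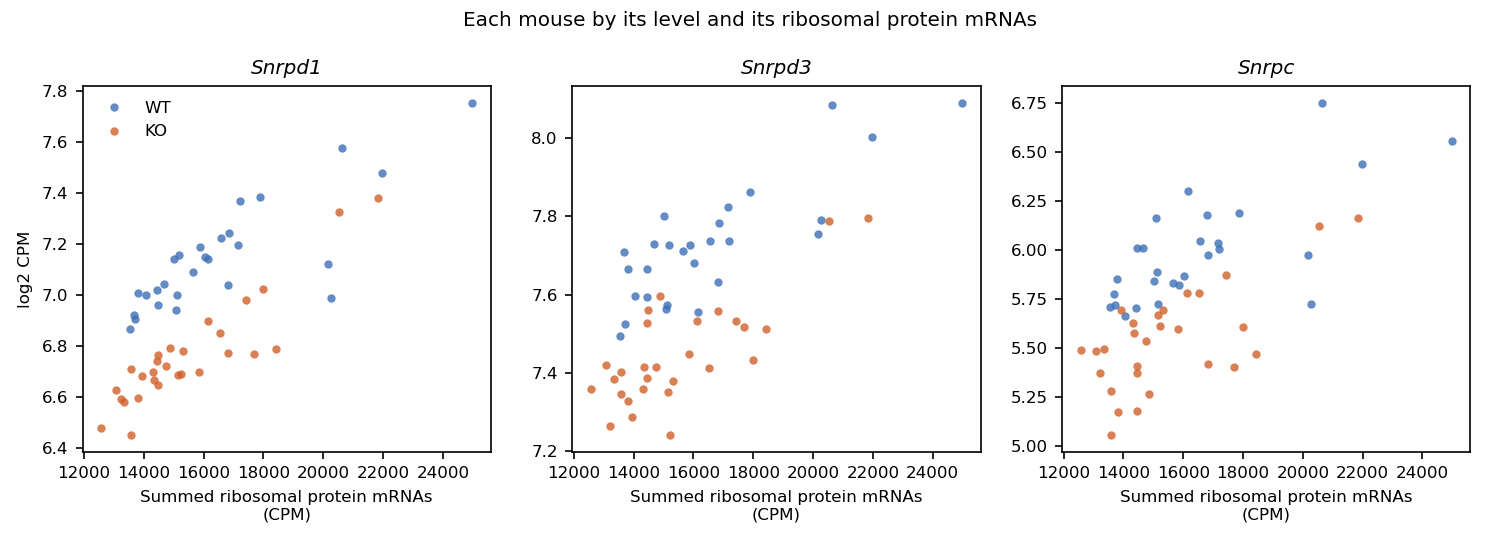
Log2 CPM of Snrpd1, Snrpd3 and Snrpc (vertical axes) in each of the 55 mice against the summed level of 34 ribosomal protein mRNAs (horizontal axis, in CPM), WT in blue and KO in orange. Levels are higher at higher sums in both genotypes, and most KO points lie below WT points of a similar sum.

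Comparisons between stages and with males, within a genotype, were not used to choose the genes and could be tested. In WT mice 2 of the 10 genes, Snrpb and Snrpa, were called in at least 1 of the 6 pairs of stages, where 30.6% of all genes were. Both fell from proestrus to estrus. In KO mice the same differences were -0.41 ± 0.12 (FDR 0.0775) for Snrpb and -0.34 ± 0.11 (FDR 0.108) for Snrpa, without a call. The KO difference minus the WT difference was -0.07 ± 0.16 and -0.02 ± 0.15, and 0 of 16168 genes were called for it. The fall is therefore not read as particular to WT mice. Snrpb was at 7.91, 7.93, 8.00, 8.02 and 8.19 log2 CPM in WT proestrus and from 7.41 to 7.91 (median 7.62) in WT estrus, a difference of -0.33 ± 0.11 (95% interval -0.55 to -0.12, FDR 0.0489). Snrpa was at 7.14, 7.28, 7.16, 7.27 and 7.37 in WT proestrus and from 6.78 to 7.09 (median 6.92) in WT estrus, a difference of -0.32 ± 0.10 (-0.52 to -0.12, FDR 0.0416). The Snrpa values did not overlap, and the Snrpb values met at 7.91, where the highest estrus mouse lay just above the lowest proestrus mouse. Both calls depended on the method, with FDRs of 0.228 and 0.213 in edgeR, 0.19 and 0.19 in DESeq2 and 0.248 and 0.247 in voom without quality weights. In each of these the differences were -0.37 for Snrpb and -0.34 for Snrpa. Of all genes 6.82% were called in this comparison in the main fit, 0.0928% in edgeR, 0.458% in DESeq2 and 0% without quality weights. Without both libraries of low weight the FDRs were 0.0633 and 0.0478. The Snrpb call was lost on leaving out any mouse of either group except WT estrus replicate 7 (FDR 0.051 to 0.137), and the Snrpa call without WT estrus replicate 1, 2, 4 or 6 or WT proestrus replicate 1, 2 or 3 (0.054 to 0.119). The summed level of 14 oligodendrocyte markers, all detected in every library, was 4247 to 7468 CPM (median 6730) in WT proestrus and 4145 to 5909 CPM (median 4720) in WT estrus, with 2 of the 14 called lower in estrus, and its part was not tested.

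In KO mice Snrpb and Snrpc were called, both between proestrus and diestrus, which is 2 of 10 compared with 46.2% of all genes in at least 1 of the 6 stage pairs. Snrpb rose from a KO diestrus range of 7.09 to 7.70 (median 7.63) to 7.74, 7.82, 7.98 and 8.18 in KO proestrus, by 0.33 ± 0.12 (0.10 to 0.57, FDR 0.021). These Snrpb values did not overlap. Snrpc rose by 0.30 ± 0.11 (0.07 to 0.52, FDR 0.0327) between the KO diestrus and proestrus values given above, which did not overlap either. In edgeR the FDRs were 0.0571 and 0.0853, and in DESeq2 0.0514 and 0.0856. Of all genes 34.3% were called in this comparison by limma, 8.37% by edgeR and 11.1% by DESeq2. Without KO diestrus replicate 4 both calls were lost (0.1 and 0.0588), and the Snrpc call was also lost without KO diestrus replicate 2 (0.0537), KO proestrus replicate 3 (0.0672) or KO proestrus replicate 4 (0.0733), and with age as a covariate (0.0528). The KO diestrus mice were the youngest (median 12.43 weeks, compared with 13.3 weeks in KO proestrus), and the sum of 7 nuclear-retained long RNAs was 720.3 to 4236 CPM (median 960.2) in them and 3311 to 4136 CPM (median 3923) in KO proestrus. The summed level of the oligodendrocyte markers was 3272 to 5245 CPM (median 3772) in KO diestrus and 4471 to 6910 CPM (median 5828) in KO proestrus, where 11 of the 14 were called higher by limma. That of 8 astrocyte markers was 3030 to 4797 CPM (median 4359) and 3059 to 3607 CPM (median 3172), with 3 called lower and 1 higher in KO proestrus. In at least 1 KO stage pair edgeR called 7 of the 14 and 2 of the 8. The part of age, nuclear-retained RNAs and these markers in the result was not tested.

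Against KO males, Snrpb and Snrpa fell, 2 of 10 compared with 33.6% of all genes called in at least 1 of the 4 stages. KO males ran from 7.69 to 8.27 (median 7.86) for Snrpb. The KO diestrus mice were lower by -0.32 ± 0.10 (-0.52 to -0.12, FDR 0.0143) and the KO estrus mice, at 7.18 to 7.69 (median 7.40), by -0.39 ± 0.11 (-0.61 to -0.18, FDR 0.0199). Snrpa ran from 6.99 to 7.42 (median 7.09) in KO males and from 6.52 to 7.15 (median 6.81) in KO estrus, a difference of -0.31 ± 0.10 (-0.51 to -0.11, FDR 0.0439). The values of both genes overlapped between the groups compared, for Snrpb in estrus only at 7.69. The FDRs of these 3 differences were 0.0674, 0.0543 and 0.168 in edgeR and 0.0562, 0.0222 and 0.123 in DESeq2. Of all genes limma called 28.7% (diestrus) and 7.66% (estrus), edgeR 5.03% and 1.01%, and DESeq2 7.23% and 2.48%. Without KO male replicate 6 and WT proestrus replicate 5 the 3 FDRs were 0.0277, 0.0307 and 0.061. With age as a covariate the Snrpb difference of diestrus from males was -0.14 (FDR 0.496), and the estrus differences were -0.32 (0.0722) and -0.28 (0.11). With only mice of 14 weeks or more they were -0.45 (0.284), -0.38 (0.0131) and -0.33 (0.0145), in the same order. KO diestrus then kept replicates 1 and 6. The median age of KO males was 18.29 weeks, and the part of age was not tested. The sum of nuclear-retained RNAs was 2284 to 3921 CPM (median 3000) in KO males, above the median of 960.2 in KO diestrus. Oligodendrocyte markers summed to 5042 to 6148 CPM (median 5512) in KO males, 4035 to 6254 CPM (median 5195) in KO estrus and a median of 3772 CPM in KO diestrus, where limma called 12 of the 14 lower than in males. Astrocyte markers summed to 2647 to 3138 CPM (median 2942) in KO males and a median of 4359 CPM in KO diestrus, where 4 of the 8 were called higher. In at least 1 KO stage against KO males edgeR called 10 of the 14 and 3 of the 8. The part of these in the result was not tested. The Snrpb call in diestrus was lost without KO diestrus replicate 4 (0.0949). The Snrpb call in estrus was lost without KO estrus replicate 2 or 3 or KO male replicate 7 (0.0508 to 0.0948). The Snrpa call was lost without KO estrus replicate 2, 3 or 6 or KO male replicate 1, 2, 5, 6 or 7 (0.0563 to 0.254).

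In WT mice limma called 0 of the 10 genes in any stage against males, where 0.0866% of all genes were called in at least 1 stage, and edgeR and DESeq2 also called 0. At an unadjusted p under 0.05 were Snrpf in proestrus (-1.05) and Snrpb in estrus (-0.31). Snrpd1, Snrpd3, Snrpd2, Snrpe, Snrpg, Snrpa1 and Snrpf, 7 of the 10, were thus called by limma in no comparison of stages or with males, in either genotype. Apart from Snrpf, their differences ran from -0.29 (Snrpe, WT proestrus against diestrus) to 0.27 (Snrpg, KO proestrus against males), and those of Snrpf from -1.05 to 0.70.

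**Figure D5:**
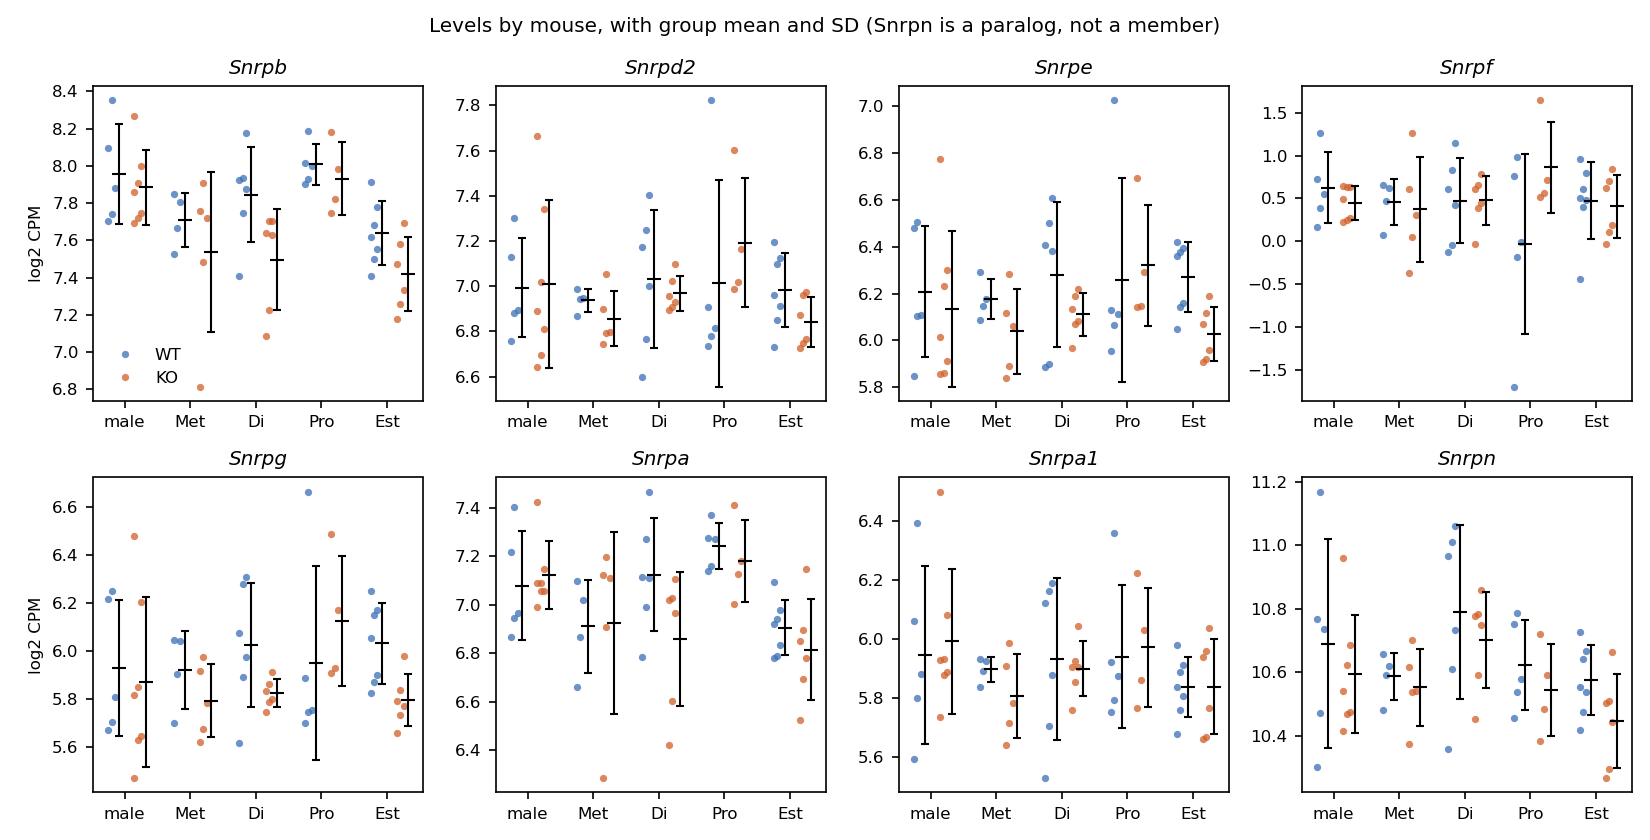
Log2 CPM of the other 7 genes and of the paralog Snrpn in each mouse (points, WT blue and KO orange) for males, metestrus (Met), diestrus (Di), proestrus (Pro) and estrus (Est), with group mean and SD in black. Snrpb and Snrpa are lower on average in Est than in Pro in both genotypes, called only in WT mice. WT proestrus replicate 5 is the highest point for Snrpd2, Snrpe and Snrpg in that group, and Snrpf has the widest spread.

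Snrpn, which encodes SmN, was highest in diestrus on average in both genotypes. In limma it was lower than in diestrus by -0.31 in WT proestrus (FDR 0.0294), by -0.30 in WT estrus (0.00971), by -0.26 in KO proestrus (0.0125) and by -0.32 in KO estrus (0.00213). Against KO males it was higher in KO diestrus by 0.20 (0.0292). Both WT calls were lost in edgeR, which called 0 of the 13 genes of the list that holds Snrpn in WT stage pairs. Of all genes edgeR called 0.00619% between WT proestrus and diestrus and 0.0124% between WT estrus and diestrus, where limma called 9.66% and 22.1%. In KO stage pairs edgeR called 1 of the 13, and against KO males 2, with no name given here. Of all genes it called 8.37%, 0.0866% and 5.03% in the KO comparisons, in the order above. Limma called 34.3%, 30.7% and 28.7% there. The age, nuclear-retained RNAs and cell markers of KO diestrus given above hold here too, and their part was not tested. The genotype difference of Snrpn was -0.08 ± 0.04. Of its exon bases 34.1% are shared with other annotated genes, Snurf among them.

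Other spliceosomal genes were grouped by particle. Of 13 other U1 and U2 proteins, 1 was called in KO against WT mice over the 5 groups, Snrpb2 at -0.16 (FDR 0.0199), with a list median of -0.09. Of all genes 3.40% were called in that comparison by limma, 0.946% by edgeR and 1.16% by DESeq2. Of the 13, edgeR and DESeq2 called 0. In at least 1 stage pair, where limma called 30.6% of all genes in WT and 46.2% in KO mice, 6 were called in WT and 8 in KO mice by limma, compared with 0 and 1 by edgeR and 1 and 2 by DESeq2. Snrnp70 encodes a U1 protein that binds the U1 RNA directly. It rose in proestrus over diestrus by 0.56 in WT (FDR 0.03) and by 0.80 in KO mice (9.34e-05). Sf3a2, of the U2 particle, fell from WT proestrus to estrus by 0.96 (0.000937). The 13 Sm-like (Lsm) proteins form the ring on the U6 RNA and related complexes. Of them 0 were called between genotypes over the 5 groups by limma, with a median of -0.05. Neither edgeR nor DESeq2 called any of the 13. In stage pairs 2 of them were called in WT and 5 in KO mice, compared with 0 and 2 by edgeR, with Lsm2 falling from WT proestrus to estrus by 1.29 (FDR 0.00573).

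Of 15 proteins of the U4/U6.U5 tri-snRNP, 0 were called between genotypes by limma (median 0.01) and likewise 0 by edgeR and DESeq2. In stage pairs limma called 5 in WT and 7 in KO mice, and edgeR 0 and 3. Eftud2 and Prpf6, both of the U5 particle, were lower in KO proestrus than diestrus by -0.56 (FDR 1.64e-05) and -0.61 (2.05e-05). Of 22 factors that assemble or import snRNPs, 2 were higher in KO mice, Tgs1, which methylates the cap of snRNAs, at 0.13 (FDR 0.0017) and Snupn, which carries snRNPs into the nucleus, at 0.17 (0.0444), with a median of -0.006, while edgeR and DESeq2 each called 1 of the 22. In stage pairs limma called 9 in WT and 5 in KO mice, edgeR 0 and 1, and Prmt5, which methylates Sm proteins, was lower in KO proestrus than diestrus by -0.45 (1.64e-05). Of 11 proteins of the minor spliceosome 2 were lower in KO mice, Zrsr2 at -0.18 (0.000117) and Snrnp35 at -0.22 (0.00263), with a median of -0.07, and edgeR and DESeq2 each called 1 of the 11. Rnpc3 rose from KO diestrus to proestrus by 0.87 (3.67e-05). In stage pairs limma called 1 of the 11 in WT and 5 in KO mice, and edgeR 0 and 3. The counts of these lists thus depended on the method, and so did the shares of all genes. In any 1 stage pair edgeR called at most 0.0928% of all genes in WT and 8.37% in KO mice. Limma called up to 22.1% and 34.3%.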

How the data were processed

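Dorsal hippocampal RNA was sequenced by the authors as paired reads (SMARTer Ultra Low kit, which keeps no strand), with 1 library per mouse. Each replicate was a separate mouse, and replicate numbers, given in sample order, only name the mice. Per the study's methods and processing notes, STAR 2.7.9a aligned reads to GRCm38 and featureCounts 2.0.3 counted unambiguous unique reads per Ensembl gene. The authors deposited these raw counts, estimated counts per transcript from Salmon 1.5.2, and a log2 CPM table of the genes tested. The gene counts were the source of values unless transcripts are named. The deposited log2 CPM served as a check and differed from those recomputed by at most 5e-14 over 16164 genes. The CPM tables of genes and transcripts that the authors deposited were not used. Of the 55774 lines 287 repeated a gene, and 1 column with no mouse in the sample list was not used.

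The filter of the authors was applied, which asks for over 1 CPM in 10 libraries or more and drops ribosomal RNA genes (5 here). In R 4.3.3, counts were scaled by TMM (edgeR 4.0.16) and fitted with voomWithQualityWeights and eBayes (limma 3.58.1). DESeq2 1.42.0, which gives some genes no adjusted p, and edgeR's quasi-likelihood test were alternatives. Other alternatives were no quality weights, RLE factors, no filter on low counts, age as a covariate, mice aged 14 weeks or more, mice of Cnih3 x B6 parents, transcript estimates summed per gene and rounded, and each mouse left out. Some transcripts were not analysed here. Lengths and overlaps came from GENCODE of GRCm38, and promoters from RefSeq. The steps were tested on simulated data.

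The 10 genes, the lists and the tests were chosen with earlier results of these data known. Besides the 10 genes and Cnih3, the genes named were up to 4 genes of each spliceosomal list with the smallest FDR per comparison, some of which are left out here, the paralogs Snrpn and Snrpb2, and the 5 genes most correlated with the mean of the 10 with group means removed. Chi-square comparisons of counts found no copied library among 129 pairs within groups. Total counts set the precision, and counting error was small beside the spread between mice except for Snrpf.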

Additional observations from a re-analysis of the deposited data

Results flagged for a closer look

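A mouse lay far from the rest of its group, by Dixon's gap test at the 95% level, in 8 of 100 pairs of a gene and a group, where chance gives about 1 in 20. WT proestrus replicate 5 accounted for 5 of them, all high, with log2 CPM of 7.75 for Snrpd1 (next highest 7.14), 7.82 for Snrpd2 (6.91), 7.03 for Snrpe (6.13), 6.66 for Snrpg (5.89) and 6.36 for Snrpa1 (5.92). This library also had the highest sum of ribosomal protein mRNAs, 24980 CPM, and the lowest quality weight, 0.194. KO male replicate 6 was high for Snrpd3 at 7.80 (next 7.43) and for Snrpa at 7.42 (next 7.15), with a sum of 21830 CPM and a weight of 0.28. WT estrus replicate 1 was low for Snrpf at -0.43 (next 0.40). The part of RNA composition in these values was not tested.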

How the results depend on the processing

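The counts of the 10 genes called in each comparison moved as follows. Counts of the fit with Cnih3 x B6 parents only are left out, since WT metestrus, proestrus and estrus each held 1 mouse in it. KO against WT over the 5 groups gave 3 genes. In males (0) it gave 1 with no filter on low counts, 2 without the libraries of low weight and 2 with the ribosomal covariate. In metestrus (0) the covariate gave 1. In diestrus (0) the covariate gave 3. In proestrus (0) it gave 2. In estrus (3) edgeR gave 0, DESeq2 1, no quality weights 0, no filter 1 and the covariate 1. WT stage pairs (2) gave 0 in edgeR, DESeq2, without quality weights, with no filter and with transcript estimates, and 4 without the libraries of low weight or with the covariate. KO stage pairs (2) gave 0 in the same first 5 settings and 6 with the covariate. KO stages against males (2) gave 0 in edgeR, without quality weights and with age, 1 in DESeq2, with no filter and with transcript estimates, and 8 with the covariate. WT stages against males (0) stayed at 0 in these settings. The cause of the shifts was not tested. The covariate and the omission of libraries of low weight were chosen after seeing the data. Shares of all genes called moved with the setting too. For KO diestrus against males they were 28.7% in the main fit, 5.03% in edgeR, 7.23% in DESeq2 and 6.54% without quality weights. For KO against WT in estrus they were 0.179%, 0.0433%, 0.179% and 0.0495%. For the covariate, the omission of libraries of low weight and each mouse left out, shares of all genes are not set beside these counts. Counts of the 10 are therefore not read alone, and nothing is read from those that lack a share.

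Leaving out each mouse gave 3 to 5 genes over the 5 groups (5 without WT diestrus replicate 1 or 2 or WT male replicate 4 or 5), 0 to 3 in males (3 without WT male replicate 5; 2 without WT male replicate 4 or KO male replicate 1, 3 or 6; 1 without WT male replicate 2), 0 in metestrus and proestrus, 0 to 3 in diestrus (3 without WT replicate 3, 2 without 4 or 5, 1 without 1 or 2) and 1 to 3 in estrus (1 without KO replicate 2). It gave 0 to 7 in WT stage pairs (7 without WT diestrus replicate 1, 6 without 2 or 6, and 0 or 1 without any WT proestrus or estrus mouse except WT estrus replicate 7), 0 for WT stages against males, 0 to 3 in KO stage pairs (0 without KO diestrus replicate 4, 1 without KO diestrus replicate 2 or KO proestrus replicate 3 or 4) and 1 to 3 for KO stages against males (1 without KO estrus replicate 2, 3 or 6 or KO male replicate 1, 2, 5 or 7). Snrpd1, Snrpd3 and Snrpc over the 5 groups ran from -0.41 to -0.36, -0.30 to -0.26 and -0.47 to -0.41, and no called value changed sign under any alternative run. With only mice of 14 weeks or more KO proestrus kept under 2 mice, so that comparisons with that group, and counts that include it, gave no value. No paired analysis was possible because replicate numbers follow sample order and the labels do not say which mice were littermates. KO and WT littermates were used per the study's methods, and some mice of different groups share an age and neighbouring mouse names, so related mice may be present, and their part was not tested.

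Low gene counts, 7 to 119 per library, limit Snrpf, of whose exon bases 85.4% are shared with other genes. The stage calls of Snrpb, Snrpa and Snrpc rest on small groups and on the quality weights.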
